A study of Sordaria macrospora with 16 samples.

Results

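H3K27me3, histone H3 trimethylated at lysine 27, was mapped by chromatin immunoprecipitation and sequencing in mycelium of the wild type and Δasf1 strains of *Sordaria macrospora*, a filamentous ascomycete. The Δasf1 strain lacks the gene for ASF1, a chaperone that carries histones H3 and H4. The comparison rests on the 4 lists of broad peaks obtained with the H3K27me3 antibody, 2 replicates of the wild type and 2 of Δasf1, out of 16 samples in the series. These lists were chosen by antibody, and together they held 21877 peaks. A further 4 lists obtained with an antibody against H3 served as the background measured in the same way. These H3 lists covered 20.8% and 31.2% of the genome in the wild type against 24.3% and 14.7% in Δasf1 (replicates 1 and 2). H3 cover of single places in replicate 2 has to be read beside this difference. The 8 input samples were not used here. All cultures were grown in liquid medium at 27 °C, the wild type for 2 days and the slower Δasf1 strain for 3 days, so that growth time and genotype cannot be told apart. The study describes the Δasf1 strains as carrying a duplicated segment of chromosome 2, which is a second difference between the groups. Chromatin of all samples was fixed with formaldehyde and cut with micrococcal nuclease at 230 U per ml for 105 min.

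H3K27me3 is deposited in many eukaryotes by the Polycomb repressive complex PRC2 and is known for facultative heterochromatin, in which genes are kept silent but can be switched on. In *Neurospora crassa*, a close relative of *S. macrospora*, the mark forms long domains that lie mostly near chromosome ends. New nucleosomes are assembled behind the replication fork and during transcription, and ASF1 hands H3 and H4 to the factors that place them on DNA.

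A peak is a stretch in which the caller found more reads than in its background, and its list gives no read counts, so the sequencing depth is unknown. The lists measure where the mark stood out within a library and not its total amount. The smallest −log10 q value was 2.02 in both lists of replicate 1, whereas it was 1.01 in the wild type against 1.00 in Δasf1 for replicate 2. The replicate 2 lists thus reached further down to weak peaks in both strains, and differences are given within each replicate number (pair 1 and pair 2). Wild type replicate 2 stood apart from the other 3 lists in peak width, as described below. The bases shared by wild type replicates 1 and 2 were 24.9% of the bases in either list (Jaccard index), less than the 39.4% shared by wild type replicate 1 and Δasf1 replicate 1. The Δasf1 replicates shared 39.0%. Over bins of 100 kb, however, the covered share of wild type replicate 1 followed that of wild type replicate 2 (Pearson r = 0.71 across 394 bins) more closely than that of the Δasf1 lists (r = 0.21 and 0.23). Much of this came from the chromosome ends. In 302 bins at least 600 kb from an end and outside a stretch of chromosome 2, r was 0.55 against 0.49 and 0.43. The design text of the series describes the replicates of a strain as biologically independent. With 2 lists against 2, the exact permutation test cannot go below p = 0.333.

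The first comparison asked how many peaks were called and how much of the genome they covered. The wild type lists held 4856 and 4764 peaks (replicates 1 and 2) and the Δasf1 lists 6090 and 6167. Peaks covered 17.7% and 18.3% of the genome in the wild type against 22.2% and 24.9% in Δasf1. Both measures were higher in Δasf1 without overlap of the groups. The mean covered share was 18.0% ± 0.43 (SD, n = 2) in the wild type against 23.5% ± 1.95 (SD, n = 2) in Δasf1, a difference of 5.58 percentage points (exact two-sided permutation test, p = 0.333). With a common cutoff of −log10 q for all lists, the difference in replicate 2 was nearly lost, with 12.3% covered in the wild type against 12.6% in Δasf1.

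Most peaks of every list were short, and the list with the widest peaks was wild type replicate 2. The median width was 1079 bp and 913.5 bp in the wild type against 1082.5 bp and 1189 bp in Δasf1. In pair 1 the medians thus differed by 3.5 bp, whereas in pair 2 the Δasf1 median was 1.30 times that of the wild type. Without wild type replicate 2, the difference of the mean log2 median width was 0.07, against 0.19 with all 4 lists, and without wild type replicate 1 it was 0.31. The 99th percentile of width was 6203 bp and 10259 bp in the wild type against 5709 bp and 6219 bp in Δasf1, so that the groups overlapped. The longest peak measured 19675 bp and 104764 bp in the wild type against 28309 bp and 19665 bp in Δasf1, with the pairs in opposite order.

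Peaks of at least 10 kb, which are long enough to hold several genes, numbered 14 and 50 in the wild type against 8 and 4 in Δasf1. They contributed 2.63% and 18.1% of the covered length in the wild type against 1.39% and 0.616% in Δasf1. Peaks of at least 20 kb numbered 25 in wild type replicate 2, 1 in Δasf1 replicate 1 and 0 in the other two lists. With a limit of 5 kb, wide peaks held 10.5% and 27.5% of the covered length in the wild type against 8.82% and 10.4% in Δasf1. This share was lower in Δasf1 in both pairs, with −1.66 and −17.1 percentage points, and its mean difference was −9.39 points (exact two-sided permutation test, p = 0.333). The number of such peaks did not follow it, with 101 and 150 in the wild type against 114 and 158 in Δasf1. Their summed length was 0.730 Mb and 1.98 Mb in the wild type against 0.771 Mb and 1.02 Mb in Δasf1, so that in pair 1 the share was lower while the length was not. With a limit of 3 kb the shares were 26.7% and 37.5% in the wild type against 27.2% and 32.01% in Δasf1, and pair 1 turned. The size of the difference at 5 kb came from wild type replicate 2. Leaving that list out gave −0.88 points, and leaving out wild type replicate 1 gave −17.9 points.

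**Figure D1:**
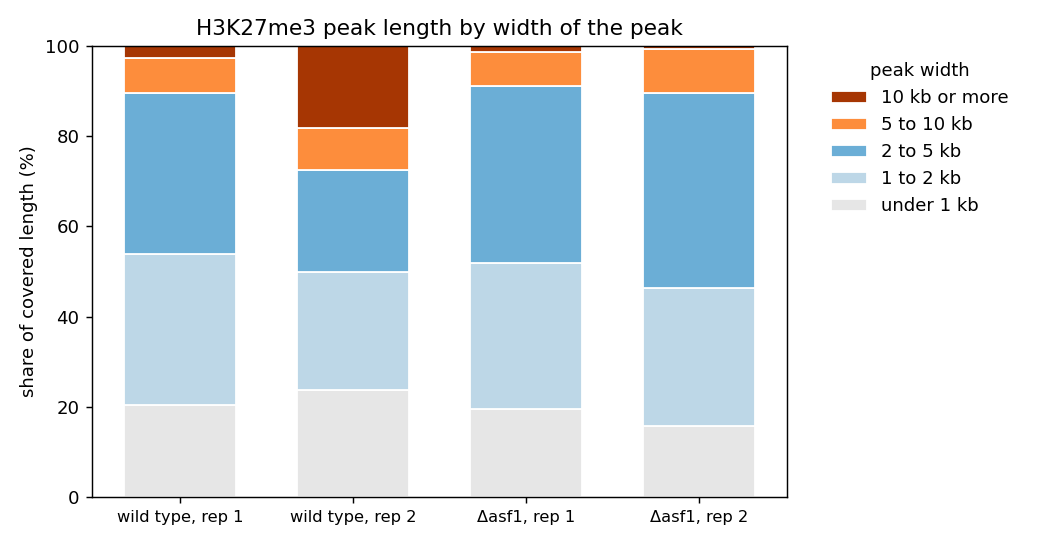
Share of the covered length (vertical axis, %) that lay in H3K27me3 peaks of 5 width classes, in each of the 4 lists (bars). Peaks of 10 kb or more held 18.1% of the length in wild type replicate 2 and at most 2.63% in the other 3 lists.

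When peaks within 5 kb of each other were joined, which was tried after the data had been seen, the direction turned. Stretches of at least 10 kb then held 59.5% and 62.8% of the joined length in the wild type against 74.97% and 77.0% in Δasf1. The longest joined stretches nevertheless belonged to the wild type, with 120655 bp and 204175 bp against 106627 bp and 107002 bp in Δasf1. Joined stretches of at least 10 kb numbered 440 and 312 in the wild type against 660 and 707 in Δasf1. In every list this was far above the number of single peaks of that width, so joining formed most wide stretches in both strains. The joining distance of 5 kb exceeded the median gap of each list, and the peaks inside a stretch were not counted.

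Single places show how the widest peaks of wild type replicate 2 looked in the other lists. The 3 widest peaks of wild type replicate 2 lay outside the rRNA genes, on chromosome 4 from 516144 to 620907 (104764 bp), on chromosome 3 from 5306422 to 5397981 (91560 bp) and on chromosome 4 from 121 to 74032 (73912 bp). The peak on chromosome 4 from 516144 spanned 30 annotated genes, and 65.2% of it was covered in wild type replicate 1, 17.2% in Δasf1 replicate 1 and 28.5% in Δasf1 replicate 2. The chromosome 3 peak spanned 22 genes and was covered over 65.2% in wild type replicate 1 and over 16.9% and 29.7% in Δasf1. In the peak at the left end of chromosome 4, cover was 43.6% in wild type replicate 1, 2.51% in Δasf1 replicate 1 and 18.5% in Δasf1 replicate 2. In these 3 places, wild type replicate 1 held a large part of the stretch as separate peaks, and both Δasf1 lists held less.

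The 3 widest peaks of each of the other 3 lists all lay at the right end of chromosome 2, in the array of ribosomal RNA genes. The widest of them measured 19675 bp in wild type replicate 1, 28309 bp in Δasf1 replicate 1 and 19665 bp in Δasf1 replicate 2. H3K27me3 peaks covered 89.0% and 78.7% of the array in the wild type against 93.5% and 86.1% in Δasf1. H3 peaks covered 91.6% to 96.3% of it. The array is a repeat, so reads from its copies cannot be assigned to a single position.

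All wide peaks of wild type replicate 2 were then followed through the other lists. Outside the rRNA array, this list had 49 peaks of at least 10 kb on 7 chromosomes, with a total of 1.29 Mb, and 37 of them lay within 600 kb of a chromosome end. Their cover was read in the other 3 lists. Wild type replicate 1 covered 50.9% of their length, Δasf1 replicate 1 covered 12.9% and Δasf1 replicate 2 covered 23.5%. Over the whole genome the same 3 lists covered 17.7%, 22.2% and 24.9%. The places were chosen in a wild type list, so these values describe the places and do not compare the strains evenly. In the reverse direction, Δasf1 replicate 1 had 4 such peaks outside the array, which were covered over 55.5% in wild type replicate 1, 3.73% in wild type replicate 2 and 55.8% in Δasf1 replicate 2, with no common order of the strains. The single such peak of Δasf1 replicate 2 was covered over 50.2% and 29.1% in the wild type replicates and over 42.2% in Δasf1 replicate 1. Of the 49 peaks of wild type replicate 2, at least 50% of the length was covered in 22 in wild type replicate 1, in 2 in Δasf1 replicate 1 and in 1 in Δasf1 replicate 2. Inside these 49 places the peaks of wild type replicate 1 were also wider than elsewhere, with a median of 1844.5 bp, whereas the Δasf1 peaks had medians of 987.5 bp and 1277 bp, near those of their whole lists.

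Spacing was the next property compared. The median gap between neighbouring peaks was 4577 bp and 4181 bp in the wild type against 3294 bp and 3386 bp in Δasf1. Gaps were shorter in Δasf1 without overlap of the groups, with −1283 bp in pair 1 and −795 bp in pair 2 (two-sided exact permutation of log2 medians, p = 0.333). With equal numbers of top-ranked peaks in all lists the medians were 4688 bp and 4181 bp in the wild type against 4190 bp and 4364 bp in Δasf1, and the groups overlapped. With the common cutoff they were 4579 bp and 6905 bp in the wild type against 3294 bp and 8265 bp in Δasf1, which turned pair 2 (p = 1 by the same exact test). Gaps of at most 1 kb were nearly absent by construction, since the smallest gap of a list was 932 bp to 1106 bp. They made up 0% and 2.73% of gaps in the wild type against 0.427% and 0% in Δasf1, and no order of the strains can be read from them. Gaps of at most 2 kb made up 20.4% and 26.6% in the wild type against 29.97% and 28.4% in Δasf1.

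Long empty stretches were fewer in Δasf1 in the lists as deposited. Gaps of at least 20 kb numbered 227 and 283 in the wild type against 131 and 87 in Δasf1. They took up 15.97% and 20.4% of the genome in the wild type against 9.57% and 5.64% in Δasf1. With the common cutoff, replicate 2 had 550 such gaps in the wild type and 542 in Δasf1. The numbers were thus alike, but these gaps took up 60.7% of the genome in the wild type against 47.8% in Δasf1. The widest gaps lay at the ends in some lists and in the interior in others. In wild type replicate 1, the widest gap lay near the right end of chromosome 5, from 4468616 to 4531485, and the next near the left end of chromosome 2, from 60861 to 114720. The 3 widest gaps of wild type replicate 2 were interior, on chromosome 3 from 3703547 to 3764598, on chromosome 5 from 3757763 to 3817012 and on chromosome 1 from 3201038 to 3258108. Δasf1 replicate 1 had peaks over 24.5%, 26.6% and 15.5% of these gaps, in the same order, and Δasf1 replicate 2 over 16.03%, 22.6% and 12.4%. Wild type replicate 1 had peaks over 9.42%, 18.2% and 0.755% of them. The widest gap of Δasf1 replicate 1 lay near the left end of chromosome 7, from 8588 to 80258, and wild type replicates 1 and 2 had peaks over 21.3% and 49.4% of it. Δasf1 replicate 2 had peaks over 19.5% of this gap. The widest gap of Δasf1 replicate 2, on chromosome 3 from 46860 to 116371, was covered over 3.00% and 32.2% in the wild type replicates. Its cover in Δasf1 replicate 1 was 5.32%. Each of these gaps was chosen as empty in its own list, so the values describe the places and do not compare the strains evenly.

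The evenness of the peaks was described by the variance of peak number per 100 kb bin divided by its mean, which is 1 for peaks scattered at random. It was 0.887 and 1.68 in the wild type against 0.994 and 0.633 in Δasf1. The strains overlapped, and the pairs went in opposite directions. The covered share of bins was more informative, with an SD over the 394 bins of 8.002 and 16.9 percentage points in the wild type against 8.004 and 7.57 points in Δasf1. Relative to the mean of the list, the coefficient of variation was 0.454 and 0.930 in the wild type against 0.361 and 0.304 in Δasf1. The top 10% of bins (39 bins) held 19.7% and 33.0% of the covered length in the wild type against 16.2% and 15.4% in Δasf1. More than 50% was covered in 5 and 27 bins in the wild type against 2 bins of each Δasf1 list. Apart from the SD in pair 1, which was alike in the strains, these measures gave a more even cover in Δasf1 than in the wild type in both pairs.

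At chromosome ends the order of the strains was the opposite of that in the whole genome. In the outermost 100 kb of the 14 chromosome ends, H3K27me3 peaks covered 30.01% and 64.1% in the wild type against 11.1% and 18.4% in Δasf1. The groups did not overlap, and the share was lower in Δasf1 with −19.0 percentage points in pair 1 and −45.7 points in pair 2 (mean difference −32.4 points, exact two-sided permutation test, p = 0.333). The size depended on the wild type list, at −15.3 points once wild type replicate 2 was left out and −49.4 points once replicate 1 was. In the outermost 50 kb the shares were 43.6% and 86.0% in the wild type against 10.2% and 22.6% in Δasf1. Leaving out the rRNA array, an alternative added after the data had been seen, gave 24.9% and 59.6% in the wild type against 5.69% and 13.4% in Δasf1. H3 peaks covered 12.8% and 23.4% of the outermost 100 kb in the wild type against 15.3% and 12.9% in Δasf1. The H3 lists of the strains overlapped there.

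With distance from the ends, the difference shrank and then turned. At 100 to 200 kb, cover was 15.3% and 29.97% in the wild type against 13.2% and 15.0% in Δasf1. At 200 to 300 kb it was 24.7% and 39.9% in the wild type against 16.3% and 19.3% in Δasf1. Δasf1 stayed below the wild type in both pairs out to 500 kb, and the pairs disagreed between 500 and 600 kb, with 0.71 and −6.00 percentage points. From 600 kb inwards Δasf1 was higher in both pairs. More than 1000 kb from the ends, cover was 15.7% and 11.6% in the wild type against 23.8% and 26.1% in Δasf1, a difference of 8.09 and 14.5 points. H3 peaks covered 22.0% and 32.8% of this sequence in the wild type against 26.1% and 15.6% in Δasf1. H3 cover there was thus higher in Δasf1 in pair 1 and lower in pair 2.

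**Figure D2:**
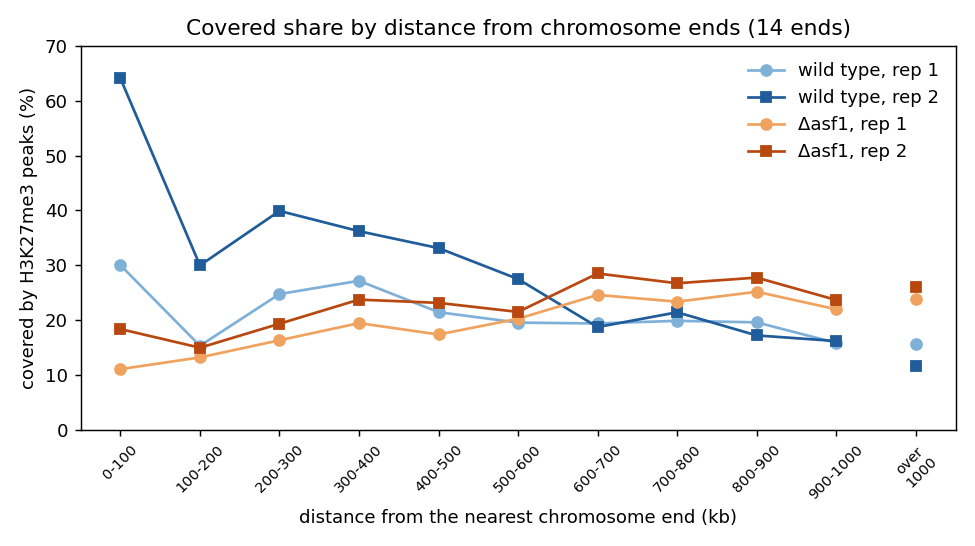
Share of sequence covered by H3K27me3 peaks (vertical axis, %) in 100 kb steps of distance from the nearest chromosome end (horizontal axis, kb), pooled over 14 ends, with the sequence beyond 1000 kb at the right. Lines are single lists; the outermost step was covered over 30.01% and 64.1% in the wild type against 11.1% and 18.4% in Δasf1, and beyond 1000 kb the order was the opposite.

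The lower cover at the ends was found on all chromosomes. In the outermost 200 kb, 13 of 14 ends had less cover in Δasf1 in both pairs. The exception was the right end of chromosome 2, which holds the rRNA array and was covered over 48.7% and 51.5% in the wild type against 51.3% and 48.6% in Δasf1. The left end of chromosome 5 had the largest difference, with 43.1% and 79.6% in the wild type against 13.5% and 19.3% in Δasf1. Among these 13 ends, the left end of chromosome 1 had the smallest difference in pair 1, with 13.6% and 39.7% in the wild type against 9.75% and 11.8% in Δasf1.

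Cover of whole chromosomes combined the lower ends with the higher interior. On chromosome 1, the longest with 9.31 Mb, peaks covered 15.0% and 11.98% in the wild type against 22.5% and 25.7% in Δasf1, which is 1.502 and 2.14 times as much. Chromosome 2 had 18.4% and 19.4% in the wild type against 25.3% and 27.6% in Δasf1. Chromosome 3 had 17.9% and 19.0% in the wild type against 22.0% and 25.3% in Δasf1. On these 3 chromosomes the Δasf1 lists lay well above those of the wild type.

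The shorter chromosomes differed less. The Δasf1 lists were 1.21 and 1.24 times the wild type on chromosome 4 and 1.10 and 1.12 times on chromosome 5, in pairs 1 and 2. Chromosome 6 had 19.1% and 22.7% in the wild type against 19.7% and 23.0% in Δasf1, and chromosome 7 had 17.6% and 20.8% in the wild type against 19.7% and 23.5% in Δasf1. On chromosomes 6 and 7 the groups overlapped. Chromosome 6 had the smallest difference, 0.39 percentage points, and its sign turned without wild type replicate 1 (−1.42 points) or without Δasf1 replicate 2 (−1.24 points). The exact p was 0.333 for chromosomes 1 to 5 and 0.667 for chromosomes 6 and 7 (two-sided permutation test), or 0.467 and 0.667 after Benjamini-Hochberg adjustment over the 7 chromosomes. With a common cutoff, the mean of Δasf1 was below that of the wild type on chromosomes 5, 6 and 7, with −0.57, −2.67 and −0.80 points. Only pair 2 turned there, with 16.3% in the wild type against 10.4% in Δasf1 on chromosome 6. In pair 1 Δasf1 stayed higher on these chromosomes. Chromosome 4 also turned in pair 2, with 14.1% in the wild type against 11.9% in Δasf1.

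When 600 kb were left out at each end, Δasf1 exceeded the wild type on all 7 chromosomes in both pairs. The distance of 600 kb was chosen with the profile from the ends known. The ratio in pairs 1 and 2 was 1.56 and 2.69 on chromosome 1, 1.66 and 2.10 on chromosome 2 and 1.36 and 1.92 on chromosome 7. Chromosome 6 again had the lowest ratios, 1.15 and 1.24, and it had the highest interior cover in the wild type (19.6% and 20.04%). Across the 7 chromosomes, the difference in whole-chromosome cover followed chromosome length (Pearson r = 0.89 in pair 1 and 0.97 in pair 2, as a description). Without the outer 600 kb, r was 0.58 and 0.68. The points share the same 4 lists, and the outer 600 kb make up 12.9% of chromosome 1 but 29.3% of chromosome 7.

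**Figure D3:**
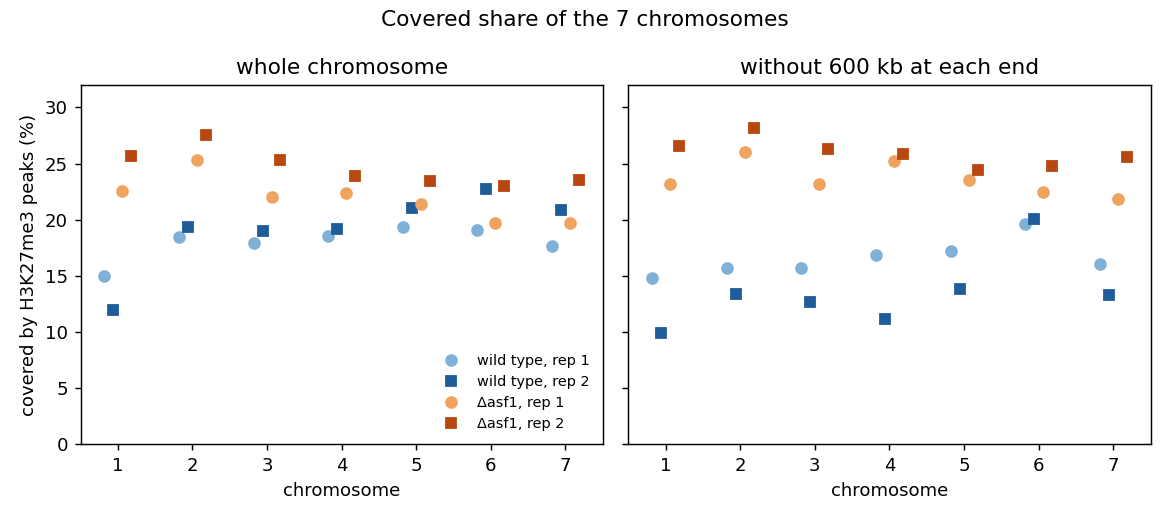
Share of each chromosome covered by H3K27me3 peaks (vertical axis, %) in the 4 lists (points), for whole chromosomes on the left and without 600 kb at each end on the right. On chromosome 1 the wild type lists lay at 15.0% and 11.98% and the Δasf1 lists at 22.5% and 25.7%, and without the ends the strains were apart on all 7 chromosomes.

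The genome was then compared in 394 bins of 100 kb. Δasf1 had more cover than the wild type in both pairs in 286 bins, less in both pairs in 73 bins, and the pairs differed in sign in 35 bins. The median difference was 5.89 percentage points in pair 1 and 13.3 points in pair 2. A linear model across all bins (limma) called 0 bins higher and 0 bins lower at an adjusted p of 0.05 (0% of bins in each direction), with a smallest adjusted p of 0.068. At an unadjusted p of 0.05, 144 bins were higher and 25 were lower. This model left out the replicate number, with which the cutoff of the lists differed. With a replicate block, limma called bins in both directions, as given in the closing section. Without wild type replicate 1, limma called 72 bins higher and 42 lower, with the single remaining wild type list assumed to vary like the Δasf1 lists. Without any 1 of the other 3 lists it called 0 in each direction.

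By a description without a model, bins were set apart when both Δasf1 lists lay on the same side of both wild type lists and each pair differed by at least 10 points. Of all bins, 95 were higher in Δasf1 by this rule (24.1%) and 22 were lower (5.58%). The lower bins lay near the ends, with 21 of 22 within 600 kb of an end, where 86 of the 394 bins lie. Of the 95 higher bins, 2 lay there. Chromosomes 1 and 2 had the largest share of higher bins (31.2% and 32.8%), and chromosome 6 had the smallest (6.98%). Both kinds of bin were found on all 7 chromosomes. The number of annotated genes per bin was similar, with a median of 26 in the higher bins, 30 in the lower bins and 27 in all bins.

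The differences of pair 1 and pair 2, which share no list, followed each other across bins (Pearson r = 0.83, n = 394, as a description). Neighbouring bins are not independent, and the bins at the ends set much of this value. In the 302 bins at least 600 kb from an end and outside the stretch of chromosome 2 described below, r was 0.58.

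**Figure D4:**
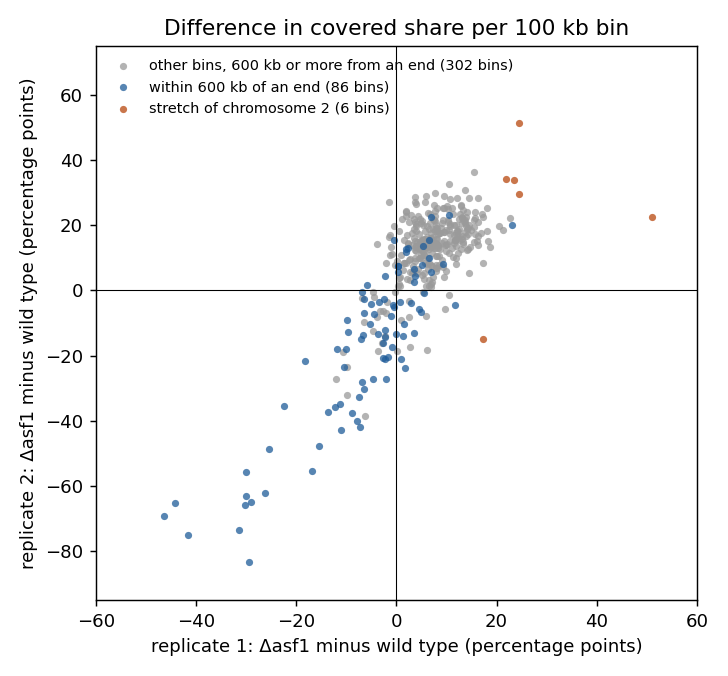
Difference in covered share between Δasf1 and the wild type in each of 394 bins of 100 kb (points), in replicate 1 (horizontal axis, percentage points) and replicate 2 (vertical axis, percentage points), coloured by position. Of the 86 bins within 600 kb of an end, 54 lie at the lower left, where Δasf1 had less cover in both pairs, and 18 at the upper right, where 268 of the 308 other bins lie.

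The 6 lower bins named by the fixed rule came from 4 chromosomes, with at most 2 bins from each chromosome. The bin on chromosome 5 from 200001 to 300000 was covered over 61.0% and 91.2% in the wild type against 14.6% and 22.0% in Δasf1. The limma difference was −57.8 ± 9.43 percentage points (SE, adjusted p = 0.068). H3 cover of the bin was 25.2% and 28.3% in the wild type against 17.9% and 14.7% in Δasf1, so H3 cover was also lower in Δasf1, by a smaller amount. The neighbouring bin from 100001 to 200000 had 52.2% and 77.0% in the wild type against 22.1% and 21.2% in Δasf1.

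On chromosome 3, the bin from 5300001 to 5400000 had 59.7% and 93.4% in the wild type against 15.5% and 28.2% in Δasf1. It held 3 peaks in wild type replicate 2 and 13 to 15 in each of the other lists, so a similar number of peaks covered far less in Δasf1 than in wild type replicate 1. On chromosome 4, the bin from 500001 to 600000 had 59.5% and 97.1% in the wild type against 17.9% and 22.1% in Δasf1. The first bin of chromosome 4 had 33.8% and 89.8% in the wild type against 2.43% and 16.3% in Δasf1, and that of chromosome 6 had 34.7% and 79.2% in the wild type against 4.47% and 13.4% in Δasf1. H3 cover was lower in Δasf1 in both pairs in the bins from 200001 on chromosome 5 and from 5300001 on chromosome 3. In the other named lower bins H3 cover was higher in Δasf1 in pair 1 and lower in pair 2. For the bin from 500001 on chromosome 4, it was 16.2% and 27.8% in the wild type against 18.3% and 14.3% in Δasf1. In all 6 bins both wild type H3K27me3 lists lay above both Δasf1 H3K27me3 lists.

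In each of these bins, up to 3 genes with the largest smaller difference of both pairs were looked up. All 18 were protein-coding. The annotation used gives locus tags and no products for them. SMAC4_09422, SMAC4_12955 and SMAC4_09693 on chromosome 5 were covered over 100% of their length in both wild type lists and over 0% in both Δasf1 lists. The same values held for SMAC4_09476 and SMAC4_13561 on chromosome 3, for SMAC4_13604 and SMAC4_13580 on chromosome 4, and for SMAC4_13878, SMAC4_09752 and SMAC4_13881 in the first bin of chromosome 6. SMAC4_09704, in the bin from 100001 on chromosome 5, also had 100% in both wild type lists and 0% in both Δasf1 lists. The other 7 genes were covered over at least 68.6% in each wild type list and at most 14.1% in each Δasf1 list. These genes were chosen for their difference, and their values are a description.

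The 6 higher bins came from 5 chromosomes. Both bins of chromosome 2 had the largest values. From 700001 to 800000, cover was 20.4% and 7.92% in the wild type against 44.9% and 59.2% in Δasf1 (limma difference 37.9 ± 6.77 points, SE, adjusted p = 0.068). From 1100001 to 1200000, it was 5.43% and 9.85% in the wild type against 29.9% and 39.4% in Δasf1. These bins lie in a stretch of 6 bins, from 700001 to 1300000, in which 5 bins were apart in the higher direction. In the bin from 700001, H3 peaks were also more extensive in Δasf1, with 28.5% and 41.9% in the wild type against 51.1% and 52.4% in Δasf1. In pair 1 this order held in all 6 bins. In pair 2 H3 cover was lower in Δasf1 in the bins from 900001, 1000001 and 1200001. Because Δasf1 is described as carrying a duplicated segment of chromosome 2, extra DNA copies and extra mark per copy cannot be told apart in this stretch. The study describes an inner part of the segment as not duplicated, and the 6 bins were not divided by it here. Without these 6 bins, the genome-wide difference in cover was 5.26 points instead of 5.58 points.

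The other 4 bins lay on chromosomes without such a segment. On chromosome 5 from 2800001 to 2900000, cover was 5.18% and 4.77% in the wild type against 27.9% and 26.9% in Δasf1 (limma difference 22.4 ± 4.49 points, SE, adjusted p = 0.069). It held 7 peaks in each wild type list, 15 in Δasf1 replicate 1 and 16 in Δasf1 replicate 2. H3 peaks covered 14.4% and 34.5% of this bin in the wild type against 33.0% and 14.03% in Δasf1 and so gave no common order of the strains. On chromosome 7 from 1000001 to 1100000, H3K27me3 cover was 15.3% and 18.4% in the wild type against 35.8% and 38.0% in Δasf1. On chromosome 4 from 900001 to 1000000, it was 12.6% and 5.53% in the wild type against 33.8% and 24.2% in Δasf1. The bin on chromosome 1 from 8700001 to 8800000, which lies 510 kb from the end, had 21.1% and 8.14% in the wild type against 44.3% and 28.2% in Δasf1. In these bins of chromosomes 7, 4 and 1, H3 cover was higher in Δasf1 in pair 1 and lower in pair 2. For chromosome 7, H3 cover was 19.7% and 34.9% in the wild type against 41.8% and 26.6% in Δasf1.

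Genes named in the higher bins of chromosome 2 have products in the study's list of genes in the duplicated segment. For these genes, too, extra DNA copies and extra mark per copy cannot be told apart. SMAC4_04374, annotated as the 60S ribosomal protein L20, a part of the large ribosomal subunit, was covered over 0% in both wild type lists and over 100% in both Δasf1 lists. SMAC4_07816, annotated as a histone H1-binding protein, had 0% and 23.6% in the wild type against 100% in both Δasf1 lists. SMAC4_05556, annotated as a haloacid dehalogenase-like hydrolase, had 0% in both wild type lists and 85.9% and 80.9% in Δasf1. Outside chromosome 2, SMAC4_02371 on chromosome 5 had 0% in both wild type lists and 88.8% and 90.9% in Δasf1. SMAC4_06692 on chromosome 4 likewise had 0% in both wild type lists and 79.2% and 91.4% in Δasf1.

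The cover of genes was compared over the whole annotation of 10804 genes. At least 50% of the length was covered in 2289 and 2157 genes in the wild type against 2979 and 3258 genes in Δasf1. The groups did not overlap, and the ratio of the means was 1.40 (two-sided exact permutation of log2 values, p = 0.333). At 90% of the gene the order was lost, with 620 and 1025 genes in the wild type against 648 and 975 in Δasf1. Of the length of all peaks, 76.8% and 62.8% lay in genes in the wild type against 83.7% and 75.2% in Δasf1, and genes make up 58.2% of the genome. The share in genes was higher in Δasf1 in both pairs, and the groups overlapped.

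Gene classes behaved differently. Of 10309 protein-coding genes, 21.7% and 20.3% were covered over at least 50% in the wild type against 28.4% and 30.9% in Δasf1. Of 445 tRNA genes, which are short, 6 and 24 were covered in the wild type against 3 and 22 in Δasf1. For tRNA genes the replicate numbers lay further apart than the strains. Of 30 rRNA genes, 29 and 27 were covered in the wild type against 30 and 28 in Δasf1.

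The sets of covered genes overlapped in part. Of all 10804 annotated genes, both wild type lists covered 910 over at least 50%, and both Δasf1 lists covered 1806. In both sets were 371 genes, which is 40.8% of the wild type set and 20.5% of the Δasf1 set. The single lists covered 2289 and 2157 genes in the wild type against 2979 and 3258 in Δasf1. The replicates of a strain thus also shared only a part of their genes. How many genes sets of these sizes share at random was not computed. Genes with at least 50% in both Δasf1 lists and under 10% in both wild type lists numbered 168 (1.55% of all genes). The reverse pattern was found for 131 genes (1.21%). These sets lay in different parts of the chromosomes. Of the 131 wild type genes, 74.8% lay within 600 kb of an end, and of the 168 Δasf1 genes 7.14% did, against 21.8% of all genes. Their median lengths were 945 bp and 1491 bp, against 1860.5 bp for all genes. Of the 168 genes, 10 lay in the stretch of chromosome 2.

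Finally, the H3K27me3 lists were set beside the H3 lists, which show where nucleosomes were recovered. Over the 394 bins, the cover of H3K27me3 peaks in Δasf1 followed that of H3 peaks in the same strain and replicate number, with r = 0.89 in replicate 1 and 0.70 in replicate 2. In the wild type, r was 0.34 in replicate 1 and −0.25 in replicate 2. Against the H3 lists of the wild type, the Δasf1 H3K27me3 lists had r between 0.64 and 0.75. Over these bins, r of the Δasf1 H3K27me3 lists with H3K27me3 of the wild type was −0.30 to 0.23. In the 302 interior bins outside the chromosome 2 stretch, r with the H3 list of the same sample group and number was 0.81 and 0.50 in Δasf1, whereas the wild type had 0.55 and −0.09. In the same bins Δasf1 replicate 1 had r = 0.49 with H3K27me3 of wild type replicate 1, above its r = 0.44 with the H3 list of Δasf1 replicate 2. In bases, Δasf1 replicate 1 shared 53.8% with its H3 list and Δasf1 replicate 2 shared 30.4% with its own, while the wild type replicates shared 40.6% and 21.5%. With H3K27me3 of wild type replicate 1 the Δasf1 lists shared 39.4% and 34.0%, which for replicate 2 exceeded the share with its own H3 list. These correlations describe bins that share libraries and base composition, and the part of nucleosome recovery in the H3K27me3 differences was not tested.

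**Figure D5:**
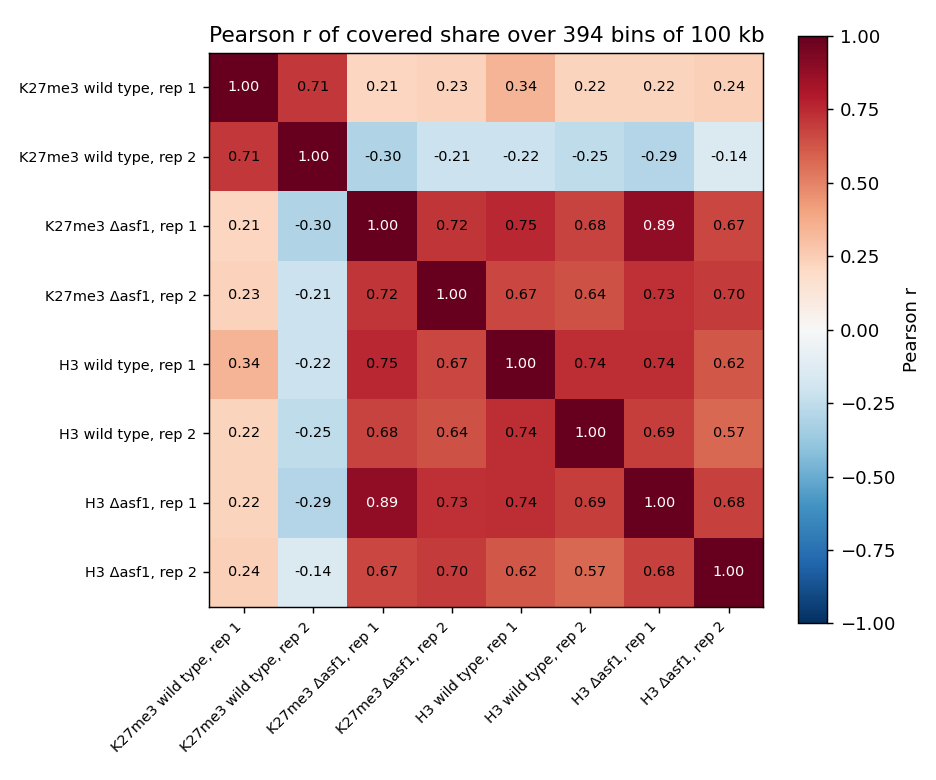
Pearson r of covered share over 394 bins of 100 kb between all pairs of the 4 H3K27me3 lists (K27me3) and the 4 H3 lists; colour runs from −1 (blue) to 1 (red). The 2 wild type H3K27me3 lists had r = 0.71 with each other, and the Δasf1 H3K27me3 lists had r between 0.64 and 0.89 with the H3 lists.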

How the data were processed

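Per the labels, which list fastp, Bowtie2 and MACS2 without versions, the authors made a broad peak list for each precipitated sample; neither the settings of the caller nor the role of the input samples is given in the sources used here. The deposited lists give start and end of each peak on an assembly named Sm_v04_wtN and, as the deposited −log10 of a q-value, its significance. Positions are printed as counted from 1. The lists hold no counts, so depth and counting intervals are unknown.

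Peaks of a list were merged where they overlapped, which changed no list. Chromosome length was taken as the largest peak or gene end. The last bin of a chromosome was kept from 50 kb. Single values were tested with the exact two-sided permutation test over 4 lists (6 assignments), on the log2 scale for peak number, median width, median gap, count dispersion and covered genes. The covered percent of bins was tested with limma 3.58.1 in R 4.3.3, with Benjamini-Hochberg adjustment over 394 bins. The code was first run on simulated data with large changes and noise below the spread of the replicates. That run does not show how well the fit finds smaller changes. Other steps used Python 3.11.15, NumPy 2.4.6, pandas 2.3.3 and matplotlib 3.10.9.

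Genes came from a RefSeq table of assembly ASM3387043v1, which gives neither strand nor sequence. As the assembly names differ, peaks were slid along the genes. The part of the peak length that fell in genes peaked within 200 bp of no offset in 28 of 28 pairs of list and chromosome, with a median of 75.6% without an offset and 58.4% at 3 to 5 kb.

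Named bins were the 6 per direction with the largest smaller-of-both pair difference (at most 2 per chromosome), with up to 3 genes of at least 500 bp each. The 3 widest peaks and gaps of each list were also looked up. The comparisons, bins and gene rules were chosen with earlier results of these data known. Alternatives were leaving out each list, a replicate block, a common −log10 q cutoff of 2.02, equal peak numbers (4764), joining peaks, other widths, gaps, bins, ends and gene shares, and other scalings in limma.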

Additional observations from a re-analysis of the deposited data

How the results depend on the processing

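The numbered replicates were not taken as paired, since no label says that a number marks a shared batch and only 2 pairs exist. The cutoff of the lists nevertheless differed with the replicate number, as given above. Deviations of bins from the strain means had r = 0.18 between same-numbered lists. With a replicate block, limma called 39 bins higher and 26 lower in Δasf1, and the block left the size of all single differences as it was, with a smallest possible p of 0.5 (covered share 5.58 points, ends −32.4 points). Other settings of limma gave, as higher and lower bins, 41 and 16 for log2(percent + 1), 4 and 14 after centring, 4 and 17 with the common cutoff, 9 and 11 in 50 kb bins, 1 and 0 in 200 kb bins and 122 and 27 after joining peaks within 5 kb; scaling by the genome share, equal peak numbers, joining at 1 kb, leaving out the chromosome 2 stretch and the filter on low bins (which removed none) gave 0 and 0. Leaving out a list gave 0 to 72 higher and 0 to 42 lower bins.

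Bins apart in both pairs, 95 higher and 22 lower, became 39 higher with the common cutoff, 47 higher with equal numbers, 191 and 48 in 50 kb bins, 39 and 14 in 200 kb bins, 197 and 35 at 5 points, 7 and 12 at 20 points, and 214 and 34 after joining at 5 kb. Leaving out a list, which leaves a single pair condition, gave 101 to 232 higher and 22 to 61 lower.

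The directions that turned were those of the share of wide peaks after joining at 5 kb (8.18 points), gaps of at most 2 kb instead of 1 kb (5.66 points), genes covered over 90% (−0.0042 on the log2 scale) and cover of chromosomes 5, 6 and 7 (−0.57, −2.67 and −0.80 points with the common cutoff; −0.76, −2.93 and −1.34 with equal numbers). Leaving out a list gave −2.52 to 0.21 points for gaps of at most 1 kb and −1.42 to 2.20 points for chromosome 6. Of 199 values under alternatives, 154 kept their direction or, for counts, stayed within 1.5 times, and 2 were exactly 0 (peak number with equal numbers, by construction, and gaps of at most 1 kb after joining at 1 kb); the cause of the others was not tested. The median gap kept a negative log2 difference with the common cutoff (−0.11), while pair 2 turned and the ratio of the means was 1.01. No named bin or gene changed direction. The lower share at the ends kept its direction in all settings run, from −15.3 to −49.4 points. Unknown depth limits all statements about weak peaks. The 5 kb joining, the chromosome 2 exclusion and the rRNA exclusion were added after the data had been seen.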
